A study of Mus musculus with 8 samples.

Results

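The genes described here are 37 T-cell and innate lymphoid genes of the mouse: lineage transcription factors and Notch1, T-cell receptor chains, coreceptors, proximal signalling proteins, costimulatory and adhesion receptors, interleukin 2 receptor chains, and natural killer (NK) and cytotoxic genes. A genomic region was assigned to one of them when, among all RefSeq protein-coding gene spans (GRCm38), that gene's span was the nearest to the region's centre and lay within 100 kb; a region called inside a gene has its centre within that span. By this rule 140 of the 66082 accessible regions of the study belonged to the list. Of these, 101 regions of 29 genes were among the 54239 regions tested in the EBF1-dTAG_C line, and 122 regions of 27 genes were among the 55193 tested in the EBF1-dTAG_N line.

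Accessibility was measured by ATAC-seq, in which Tn5 transposase inserts sequencing adapters into open DNA, so that reads pile up where chromatin is accessible. The cells were A-MuLV transformed pro-B cells, B-cell precursors immortalised with Abelson murine leukaemia virus, in which modified EBF1 stands in for the endogenous protein in all 4 groups. The 4 groups were EBF1-dTAG_C with DMSO, EBF1-dTAG_C with 0.5 uM dTAG-13, EBF1-dTAG_N with DMSO and EBF1-dTAG_N with 0.5 uM dTAG-13, each with 2 libraries and each treated for 6 h. DMSO is the solvent control, and dTAG-13 directs a protein that carries the dTAG degron to degradation. Titles mark the controls as 0 h although their treatment label reads 6 h of DMSO, which was followed. The labels do not say whether each line is 1 clone; transformed lines stand in for primary pro-B cells.

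EBF1 is a transcription factor that, with PAX5, opens the B-lineage programme and holds down genes of other lineages. Pro-B cells that lose EBF1 are known to be able to give rise to T cells and innate lymphoid cells. Notch1 signalling followed by GATA3, TCF1 and BCL11B starts the T-cell programme, whereas T-BET, EOMES, NFIL3, RORA and PLZF act in NK cells and other innate lymphoid cells. The comparisons ask which loci of these alternative lineages were open in the pro-B cells and which way they moved at 6 h.

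The sequences below show 4 promoters that were accessible in both lines and higher after dTAG-13 in the EBF1-dTAG_N line (values further on), and 1 that had no accessible region, Ptcra, which encodes the pre-T-cell receptor alpha chain. Each is the RefSeq window (GRCm38.p6) from 250 bases before to 50 bases after an annotated start, written along the gene's strand. Capitals mark matches to the RUNX motif TGTGGT or its reverse complement ACCACA, or to the E protein motif CAGCTG. Lat lies at chr7:126369519-126369818 (minus strand) and has 1 RUNX match, and the upstream start of Runx3 lies at chr4:135120395-135120694 (plus strand) and has 2. Lck, at its downstream start, lies at chr4:129558323-129558622 (minus strand), and Notch1 at chr2:26503773-26504072 (minus strand), both with no match to the motifs searched. Ptcra lies at chr17:46763663-46763962 (minus strand) and has 3 E protein matches.
Lat: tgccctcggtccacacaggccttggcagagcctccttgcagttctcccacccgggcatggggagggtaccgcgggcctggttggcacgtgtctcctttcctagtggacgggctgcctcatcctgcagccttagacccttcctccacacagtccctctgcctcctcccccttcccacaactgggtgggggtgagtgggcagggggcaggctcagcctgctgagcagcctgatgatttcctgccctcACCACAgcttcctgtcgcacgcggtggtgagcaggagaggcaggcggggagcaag
Runx3: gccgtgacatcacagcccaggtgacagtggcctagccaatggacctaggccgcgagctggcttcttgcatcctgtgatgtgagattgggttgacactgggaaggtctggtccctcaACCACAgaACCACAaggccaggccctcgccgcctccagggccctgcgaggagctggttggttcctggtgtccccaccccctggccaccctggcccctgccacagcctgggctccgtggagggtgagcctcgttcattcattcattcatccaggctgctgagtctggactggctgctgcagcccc
Lck: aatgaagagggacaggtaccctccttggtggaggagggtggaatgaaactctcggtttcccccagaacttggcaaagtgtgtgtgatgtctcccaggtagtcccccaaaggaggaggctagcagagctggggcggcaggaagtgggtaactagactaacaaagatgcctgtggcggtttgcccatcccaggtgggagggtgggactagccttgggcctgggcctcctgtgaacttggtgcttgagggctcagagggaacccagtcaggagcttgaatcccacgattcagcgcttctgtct
Notch1: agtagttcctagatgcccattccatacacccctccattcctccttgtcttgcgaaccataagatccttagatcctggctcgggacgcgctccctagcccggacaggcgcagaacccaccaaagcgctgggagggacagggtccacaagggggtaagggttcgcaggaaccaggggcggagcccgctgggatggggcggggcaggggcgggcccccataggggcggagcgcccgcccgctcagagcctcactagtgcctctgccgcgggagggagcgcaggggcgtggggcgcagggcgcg
Ptcra: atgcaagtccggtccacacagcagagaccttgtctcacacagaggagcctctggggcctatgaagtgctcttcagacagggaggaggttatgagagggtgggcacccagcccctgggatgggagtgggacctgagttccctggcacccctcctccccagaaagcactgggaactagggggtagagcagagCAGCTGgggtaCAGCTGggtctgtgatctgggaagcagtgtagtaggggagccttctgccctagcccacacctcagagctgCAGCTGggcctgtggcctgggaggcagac

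In the table of RefSeq windows, 25 of the 37 genes had 31 windows; Cd2, Cd28, Cd4, Cd6, Cd7, Cd8b1, Icos, Il2rb, Klrd1, Thy1, Tox and Zbtb16 had none. Motifs were searched on both strands. The palindromic EBF1 motif was in 0 of the 31 windows, against 0.904% of all 32851 RefSeq windows of the same length. RUNX matches were in 8 windows (25.8%, against 16.8% of all windows), TCF/LEF matches (CTTTGAT) in 2 (6.45%, against 3.73%), and E protein matches in 8 (25.8%, against 16.3%). A match describes letters in the window and not a bound site. Accessible regions away from promoters were not read for motifs here.

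Most of the alternative-lineage loci held open chromatin in DMSO-treated pro-B cells, as did most of all protein-coding genes. A gene was counted as open when at least 1 of its regions had a peak in both DMSO libraries of a line. By this measure 25 of the 37 genes (67.6%) were open in EBF1-dTAG_C, against 57.8% of all 21900 protein-coding genes, and 24 (64.9%, against 56.9%) in EBF1-dTAG_N. The 23 genes open in both lines were Cd247, Cd28, Cd3d, Cd5, Cd6, Cd7, Ctla4, Eomes, Gata3, Ifng, Il2ra, Il2rb, Klrd1, Lat, Lck, Nfil3, Notch1, Rora, Runx3, Tbx21, Thy1, Tox and Zap70. Ncr1 and Cd2 were open in EBF1-dTAG_C and not in EBF1-dTAG_N, and Cd4 was open in EBF1-dTAG_N and not in EBF1-dTAG_C. These differences were not tested. Counting only peaks within 20 kb of the gene, 21 genes were open in EBF1-dTAG_C and 22 in EBF1-dTAG_N. The share of all genes at that distance was not counted. A nearby peak shows open DNA and not expression, and 7 of 31 promoter windows (of Cd5, Lat, Lck, Nfil3, Notch1 and both Runx3 starts) overlapped an accessible region in each line, against 31.6% of all windows in EBF1-dTAG_C and 31.5% in EBF1-dTAG_N.

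No region in either line was assigned to 7 genes: Bcl11b, the factor that commits cells to the T lineage, Cd3g and Ptcra, which encode chains of the T-cell and pre-T-cell receptor, Cd8a and Cd8b1, the CD8 coreceptor chains, and Gzmb and Prf1, which encode the cytotoxic proteins granzyme B and perforin. Cd4 had no region in EBF1-dTAG_C, and Cd3e, Themis and Ncr1 had none in EBF1-dTAG_N. Of the 37 genes, 29 had a region in EBF1-dTAG_C and 27 in EBF1-dTAG_N. Of all 21900 protein-coding genes, 14497 and 14275 did, so many genes of any kind lacked one. Each region went to the nearest span alone, so a gene without a region can still lie close to one. Zbtb16, which encodes PLZF, had 1 weak region in each line, with a peak in a single DMSO library. Among the markers of the labelled cell type, 9 of 10 B-lineage genes were open with DMSO in EBF1-dTAG_C, as were all 10 in EBF1-dTAG_N. Of 9 T-lineage markers, 3 (Cd3d, Gata3 and Lck) were open in EBF1-dTAG_C and 4 (these and Cd4) in EBF1-dTAG_N. Of 6 NK and innate lymphoid markers, 5 (Eomes, Il2rb, Klrd1, Ncr1 and Tbx21) were open in EBF1-dTAG_C and 4 (these without Ncr1) in EBF1-dTAG_N. Of 7 myeloid markers, 2 were open in EBF1-dTAG_C and 1 in EBF1-dTAG_N. Of all protein-coding genes, 57.8% were open with DMSO in EBF1-dTAG_C and 56.9% in EBF1-dTAG_N.

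The strongest open sites were compared by the pileup at the peak summit, a whole number of overlapping sequenced pieces that was solved for each library from the deposited fold and p-value and is not scaled for depth. The highest summit lay 5.5 kb upstream of Il2ra, the gene of the interleukin 2 receptor alpha chain CD25, which late B-cell precursors also express. It reached 199 and 214 in the EBF1-dTAG_C DMSO libraries and 222 and 204 in those of EBF1-dTAG_N. Inside Notch1, the region near chr2:26483186-26483903 reached 98 and 97 in the EBF1-dTAG_C libraries and 147 and 154 in those of EBF1-dTAG_N. Inside Tox, which encodes a factor of T-cell and innate lymphoid development, the highest summit was similar in both lines, at 117 and 101 in EBF1-dTAG_C against 115 and 95 in EBF1-dTAG_N. These exceed the single Gata3 region, whose summit reached 53 and 54 in EBF1-dTAG_C against 37 and 40 in EBF1-dTAG_N.

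Depth touches each of these values. The libraries held 34202 to 42139 peaks, and the lowest background pileup, which follows depth, was 0.331 to 0.408 with DMSO and 0.229 to 0.372 with dTAG-13, lower with dTAG-13 in both lines. Peaks at the 37 genes numbered 77 and 82 in EBF1-dTAG_C with DMSO and 62 and 62 with dTAG-13, and 89 and 85 in EBF1-dTAG_N with DMSO and 75 and 85 with dTAG-13. The mean of EBF1-dTAG_C was 79.5 ± 3.54 with DMSO and 62.0 ± 0.0 with dTAG-13, and that of EBF1-dTAG_N was 87.0 ± 2.83 with DMSO and 80.0 ± 7.07 with dTAG-13 (SD, n = 2). The mean difference over both lines, dTAG-13 minus DMSO, was -12.25 peaks (two-sided exact permutation test within lines, p = 0.111; the smallest p this design allows is 0.0556, so the test cannot pass 0.05). The share of a library's peaks that lay at these genes was 0.18% to 0.214% in the 8 libraries, and with equal numbers of best-ranked peaks per library the difference was -0.75 peaks (exact permutation p = 1).

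**Figure D1:**
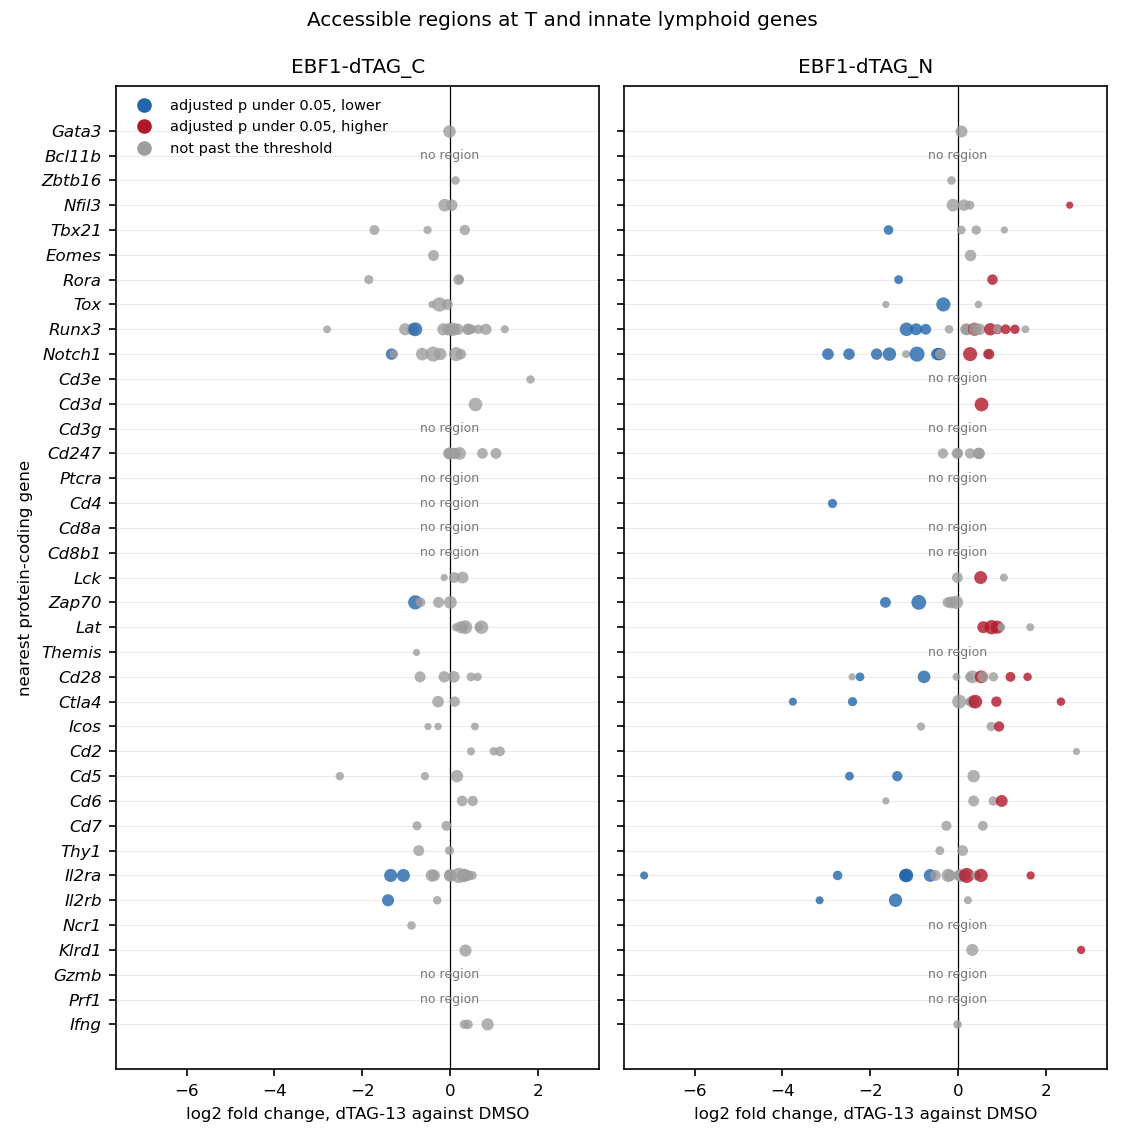
Log2 fold change of each accessible region (dTAG-13 against DMSO, x axis) at each of the 37 genes (y axis, grouped by role) in EBF1-dTAG_C (left) and EBF1-dTAG_N (right), from the authors' deposited tables. Blue and red dots are regions lower or higher at an adjusted p under 0.05, grey dots are not past it, and larger dots have higher mean abundance; 6 regions are blue on the left, 30 are blue and 26 red on the right.

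At 6 h, regions at the T and innate lymphoid genes moved in both directions in EBF1-dTAG_N, and the regions that passed the test in EBF1-dTAG_C all fell. Changes are the log2 fold change of dTAG-13 against DMSO, and a region was called at a Benjamini-Hochberg adjusted p under 0.05 over the whole table, both from the authors' deposited tables, whose columns are those of edgeR. In EBF1-dTAG_C, the authors' deposited table called 6 of the 101 regions lower (5.94%, against 6.62% of all its regions) and 0 higher (against 0.308%). In EBF1-dTAG_N, the authors' deposited table called 30 of the 122 regions lower (24.6%, against 18.5% of all its regions) and 26 higher (21.3%, against 18.8%). The EBF1-dTAG_C shares were near those of all regions, and the EBF1-dTAG_N shares were somewhat above them. The median log2 fold change over these regions was 0.07 in EBF1-dTAG_C, where all regions had 0.09, and 0.17 in EBF1-dTAG_N, where all regions had 0.17, in the authors' deposited tables.

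The split in EBF1-dTAG_N depends on where no change is set. Of its calls at these genes 53.6% were lower as deposited, and 75.6% were lower, 31 against 10 (20.8% and 7.98% of all regions), when folds were centred on the table's median of 0.17. Centring gave 9 lower and 0 higher in EBF1-dTAG_C (7.39% and 0.162% of all regions). The tables also differ in the spread they assume: the median denominator degrees of freedom were 11.2 for EBF1-dTAG_C but 110000 for EBF1-dTAG_N. With those of EBF1-dTAG_C the EBF1-dTAG_N counts were 25 lower (16.3% of all regions) and 13 higher (12.4% of all regions).

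By gene, the authors' deposited table of EBF1-dTAG_N had 12 of 27 genes with a fallen region and 13 with a risen one. Of these, 6 genes had both, and 8 of the 27 had no call. Of all genes with a region in that table, 34.2% had a fallen region and 41.2% a risen one. On centred folds 12 genes had a fallen region and 8 a risen one. The share of all genes on centred folds was not counted. In EBF1-dTAG_C, 5 of 29 genes had a fallen region in the authors' deposited table: Il2ra, Il2rb, Notch1, Runx3 and Zap70 (16.3% of all genes with a region had one). A second list of 30 other T and innate lymphoid genes, among them Tcf7, Lef1 and Id2, had 138 regions in EBF1-dTAG_C, 14 lower (10.1%) and 1 higher (0.725%) in the authors' deposited table. It had 139 regions in EBF1-dTAG_N, 36 lower (25.9%) and 30 higher (21.6%) in the authors' deposited table. Of 10 B-lineage marker genes, 15 of 74 regions fell (20.3%) and 0 rose in EBF1-dTAG_C, and 25 of 84 fell (29.8%) and 11 rose (13.1%) in EBF1-dTAG_N, in the authors' deposited tables. The shares of all regions are those given above (6.62% and 0.308%, and 18.5% and 18.8%). Their part in the results at the T and innate lymphoid genes was not tested.

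The fall was shared by the lines at 6 regions, a share near that of all paired regions. Of the 83 regions present in both tables, the authors' deposited tables called 6 lower in both (7.98% of all 42803 paired regions were) and 0 higher in both (0.306%). No other region at these genes passed in EBF1-dTAG_C. The 6 lay at Il2ra (2 regions), Il2rb, Notch1, Runx3 and Zap70. In each of them the summit pileups of the DMSO and dTAG-13 libraries did not overlap in either line, as the plot of pileups per library shows. This is a description only: pileups are not scaled for depth, the dTAG-13 libraries had the lower background, and at Gata3 they were apart in the same way at folds near 0. The 6 regions were picked by the test on these same libraries. The share of all regions that were apart in this way was not counted.

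Il2ra fell 19.4 kb upstream, at chr2:11623138-11623580. Summit pileups were 82 and 75 with DMSO and 17 and 23 with dTAG-13 in EBF1-dTAG_C, and 115 and 125 against 41 and 44 in EBF1-dTAG_N. The dTAG-13 libraries were the low ones in both lines. The authors' deposited tables gave a log2 fold change of -1.35 (2.54-fold lower, adjusted p = 0.00167) in EBF1-dTAG_C and -1.17 (2.25-fold lower, adjusted p = 2.09e-19) in EBF1-dTAG_N.

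The other shared Il2ra region lay inside the gene at chr2:11662666-11663028. Its DMSO summits were 43 and 34 for EBF1-dTAG_C, below the 62 and 53 of EBF1-dTAG_N. With dTAG-13, neither EBF1-dTAG_C library had a peak there and a single EBF1-dTAG_N library had one, at 20. The authors' deposited tables gave -1.06 (adjusted p = 0.0452) and -1.19 (adjusted p = 1.5e-15) on the log2 scale.

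Il2rb encodes the beta chain that interleukin 2 and interleukin 15 receptors share, a chain that NK cells depend on. Inside it, at chr15:78510158-78510555, summits were 30 and 44 with DMSO and 12 and 8 with dTAG-13 in EBF1-dTAG_C, and 91 and 94 against 19 and 17 in EBF1-dTAG_N. These pileups are not scaled for depth, and the dTAG-13 libraries had the lower background. The log2 fold changes in the authors' deposited tables were -1.41 (adjusted p = 0.0224) and -1.42 (adjusted p = 2.35e-23), 2.67-fold lower in each line.

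Notch1 encodes the receptor whose signalling starts T-cell development. Its shared region, 9.7 kb upstream at chr2:26513302-26513680, had summits of 27 and 10 with DMSO in EBF1-dTAG_C and of 97 and 98 in EBF1-dTAG_N. With dTAG-13, EBF1-dTAG_C had a summit of 6 and no peak, and EBF1-dTAG_N had 24 and 24. The site was low in EBF1-dTAG_C before treatment as well. In the authors' deposited tables the log2 fold changes were -1.33 (adjusted p = 0.0467) and -1.56 (adjusted p = 8.16e-29).

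Runx3 encodes a RUNX factor of CD8 T cells, NK cells and other innate lymphoid cells. At chr4:135181784-135182228, 4.0 kb downstream of the gene, summits were 103 and 107 with DMSO and 35 and 38 with dTAG-13 in EBF1-dTAG_C, and 120 and 117 against 23 and 35 in EBF1-dTAG_N. The authors' deposited tables gave log2 fold changes of -0.79 (adjusted p = 0.0168) and -1.17 (adjusted p = 2.7e-18). This was the most open of the shared sites in the EBF1-dTAG_C DMSO libraries.

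Zap70 encodes the kinase that docks on the phosphorylated T-cell receptor complex. Inside the gene, at chr1:36766864-36767576, summits were 63 and 54 with DMSO and 28 and 32 with dTAG-13 in EBF1-dTAG_C, and 120 and 108 against 79 and 61 in EBF1-dTAG_N. The authors' deposited tables gave log2 fold changes of -0.79 (adjusted p = 0.0109) and -0.89 (adjusted p = 5.02e-27). In bulk libraries a smaller opening in every cell and a loss in a share of the cells cannot be told apart.

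**Figure D2:**
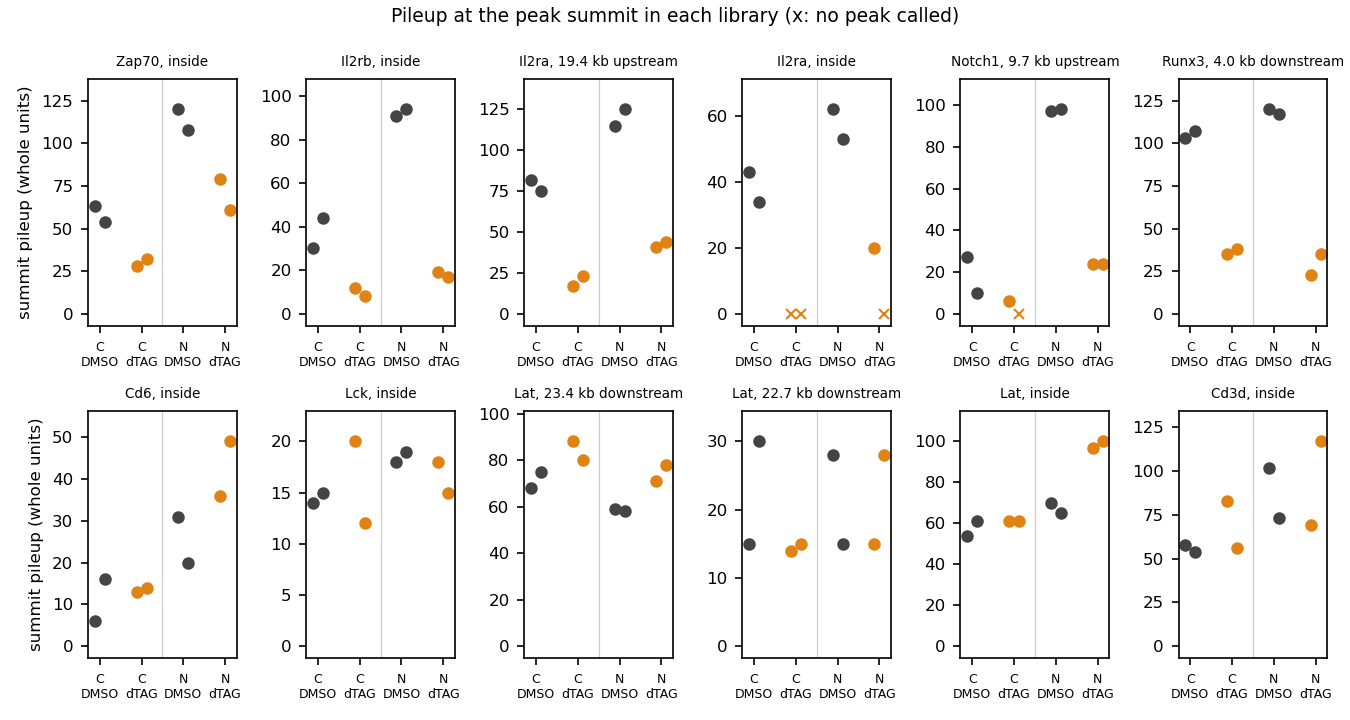
Summit pileup (y axis, whole units, not scaled for depth) in each of the 8 libraries at the 6 regions that fell in both lines (top row) and at 6 regions of Cd6, Lck, Lat and Cd3d that were higher in EBF1-dTAG_N (bottom row); grey points are DMSO and orange points dTAG-13, C and N are EBF1-dTAG_C and EBF1-dTAG_N, and a cross marks a library without a peak. In the top row each orange point or cross lies below the grey points of its line, as at Il2rb with 91 and 94 against 19 and 17, whereas in the bottom row the groups are apart in EBF1-dTAG_N at Cd6 and 2 of the Lat regions and meet or overlap at the others.

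Between the lines, folds had the same sign at 61 of the 83 paired regions. The same share over all paired regions was not counted. Of all regions, 40.6% had a negative fold in EBF1-dTAG_C and 37.1% in EBF1-dTAG_N, so most folds were positive in both tables. In the authors' deposited tables, the 17 paired regions that fell in EBF1-dTAG_N all had a negative fold in EBF1-dTAG_C (97.5% of all paired regions that fell in EBF1-dTAG_N did). Of the 17 that rose in EBF1-dTAG_N, 16 had a positive fold in EBF1-dTAG_C (90.4% of all such regions did). The exception was a region 43.5 kb outside Cd28, with a log2 fold change of 0.53 in EBF1-dTAG_N and -0.13 in EBF1-dTAG_C in the authors' deposited tables, the first of which did not pass when centred (adjusted p = 0.072). In all, 28 of the 83 regions were called in EBF1-dTAG_N alone, 11 lower and 17 higher, and 0 in EBF1-dTAG_C alone. Of all paired regions, 8.89% were lower and 21.6% higher in EBF1-dTAG_N alone, and 0.128% were called in EBF1-dTAG_C alone. That does not show a difference between the lines: an approximate test of the difference of the deposited log2 fold changes, adjusted by Benjamini-Hochberg over all 42803 paired regions, called 0 of the 83 (0% of all), with 2 at an unadjusted p under 0.05 and a smallest adjusted p of 0.994.

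**Figure D3:**
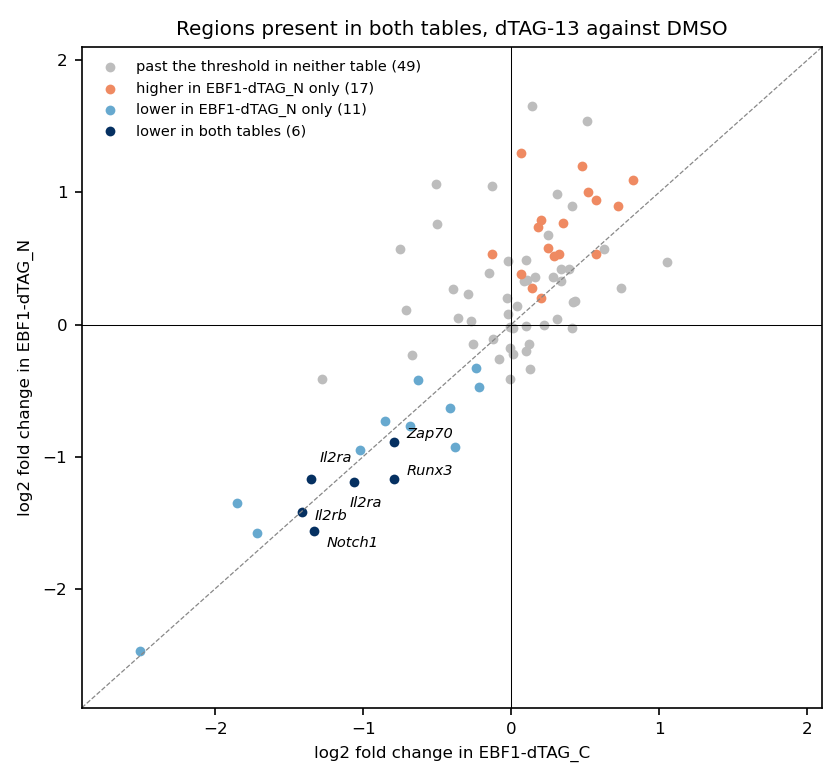
Log2 fold change (dTAG-13 against DMSO) in EBF1-dTAG_C (x axis) and EBF1-dTAG_N (y axis) at the 83 regions in both of the authors' deposited tables, with the dashed line marking equal folds. Dark blue points, named by their gene, are the 6 lower in both tables, light blue the 11 lower and orange the 17 higher in EBF1-dTAG_N alone, and grey the 49 called in neither; the 6 lie close to the dashed line.

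Among the transcription factors and Notch1, 13 of 44 regions fell and 9 rose in EBF1-dTAG_N, and 2 of 37 fell and 0 rose in EBF1-dTAG_C, in the authors' deposited tables. Of all regions, 18.5% fell and 18.8% rose in the first line named, and 6.62% fell and 0.308% rose in the other. On centred folds 13 were lower and 2 higher in EBF1-dTAG_N (20.8% and 7.98% of all regions), and 5 were lower in EBF1-dTAG_C (7.39%). Notch1 had the most fallen regions of the 37 genes in EBF1-dTAG_N, 7 of 12, with 2 risen. The region inside the gene at chr2:26483168-26483936 had summits of 147 and 154 with DMSO and 42 and 51 with dTAG-13 in EBF1-dTAG_N, and 98 and 97 against 45 and 54 in EBF1-dTAG_C. Its log2 fold change was -0.93 (adjusted p = 1.54e-35) in EBF1-dTAG_N and -0.38 (adjusted p = 0.096) in EBF1-dTAG_C, in the authors' deposited tables.

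A pair of Notch1 regions lost their peaks in EBF1-dTAG_N. At chr2:26486834-26487087, inside the gene, DMSO summits were 32 and 38, and at chr2:26529942-26530350, 26.3 kb upstream, they were 30 and 31; no dTAG-13 library had a peak at either. The authors' deposited table gave log2 fold changes of -2.96 (adjusted p = 4.28e-24) and -2.48 (adjusted p = 2.33e-17). A further inside region, at chr2:26482151-26482358, had a peak of 36 in a single DMSO library and a log2 fold change of -1.85 (adjusted p = 1.02e-10) in the authors' deposited table. None of these 3 regions was in the EBF1-dTAG_C table.

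The Notch1 start site behaved otherwise. At chr2:26503617-26504008 summits were 103 and 87 with DMSO and 90 and 92 with dTAG-13 in EBF1-dTAG_N, and 107 and 72 against 76 and 85 in EBF1-dTAG_C, so the groups overlapped in both lines. The authors' deposited tables gave log2 fold changes of 0.28 (adjusted p = 0.0181) and 0.14 (adjusted p = 0.762), and the EBF1-dTAG_N rise did not pass when folds were centred (adjusted p = 0.458). The remaining Notch1 calls in EBF1-dTAG_N were a fall of 0.47 on the log2 scale 3.9 kb upstream (adjusted p = 0.043), and, inside the gene, a fall of 0.42 (adjusted p = 0.0439) and a rise of 0.71 (adjusted p = 0.0422), in the authors' deposited table. Neither fall passed with the degrees of freedom of EBF1-dTAG_C (adjusted p = 0.0934 and 0.0945), nor the rise when centred (adjusted p = 0.166).

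**Figure D4:**
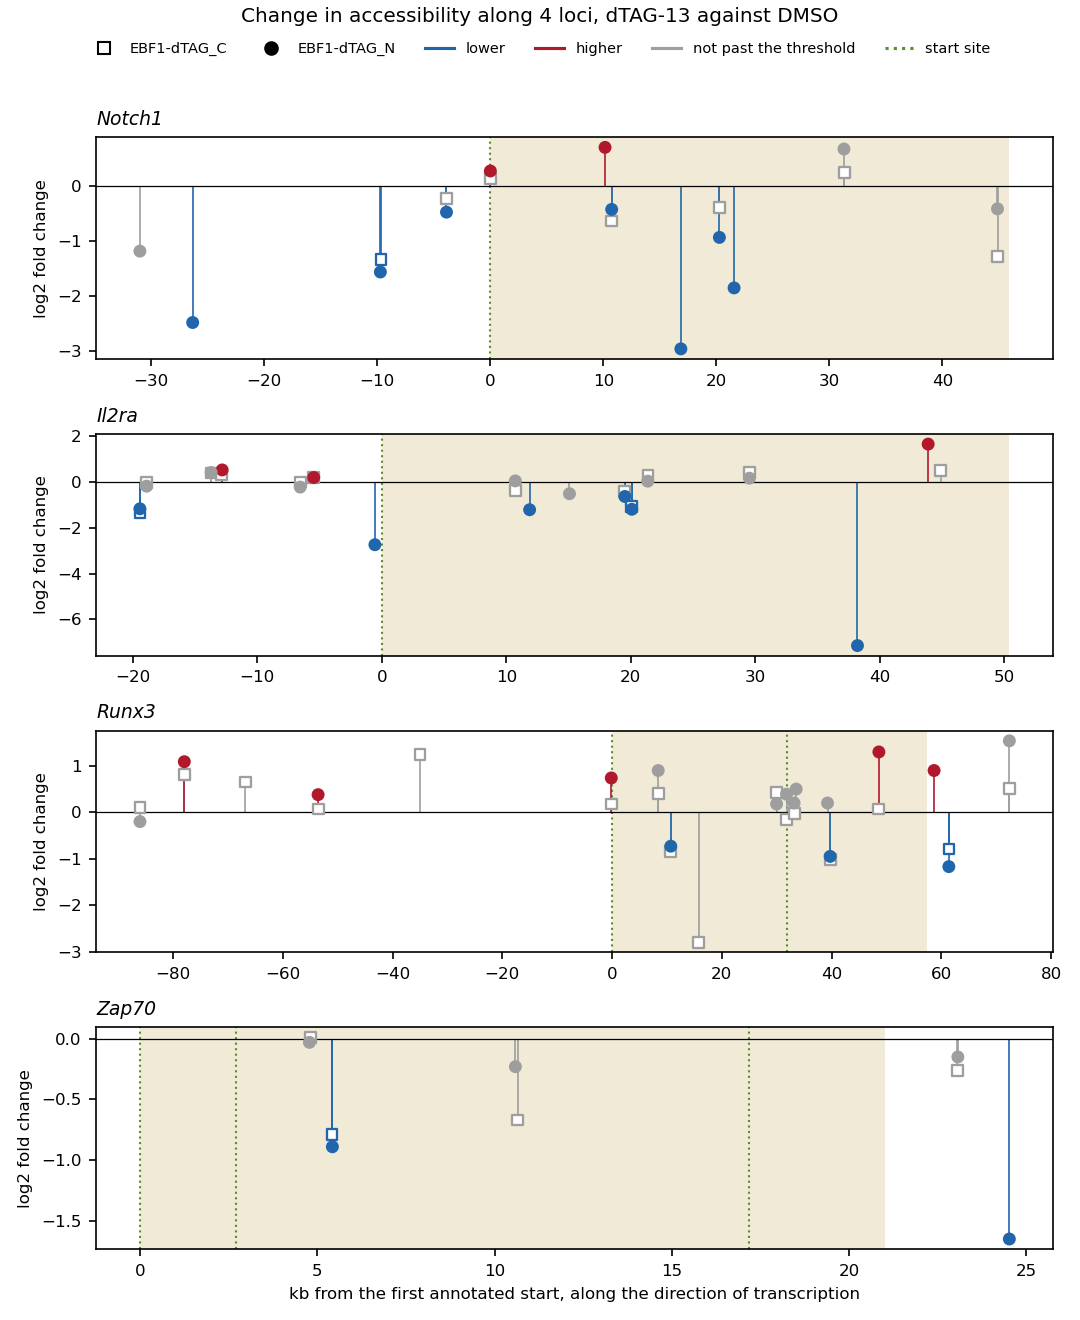
Log2 fold change (y axis, from the authors' deposited tables) of each region by its distance in kb from the first annotated start along the direction of transcription (x axis) at Notch1, Il2ra, Runx3 and Zap70; shading marks the gene span, green dotted lines the start sites, squares EBF1-dTAG_C and circles EBF1-dTAG_N. Blue marks are lower, red higher and grey not past the threshold; at Notch1 the EBF1-dTAG_N falls reach -2.96 while the start-site region stands at 0.28.

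Runx3 moved in both directions in EBF1-dTAG_N, where 18.5% of all regions were lower and 18.8% higher. Of its 16 regions, 3 were lower and 5 higher. Of the 5, 2 passed when centred (adjusted p = 0.00552 and 0.0342), and the others stood at 0.0536, 0.141 and 0.273. A fall of 0.73 inside the gene (adjusted p = 0.0355 in the authors' deposited table) did not pass with the degrees of freedom of EBF1-dTAG_C (adjusted p = 0.0838). The region at its upstream start, chr4:135120297-135120698, had summits of 35 and 42 with DMSO and 47 and 62 with dTAG-13 in EBF1-dTAG_N, and the authors' deposited table gave a rise of 0.74 on the log2 scale (adjusted p = 0.000157). In EBF1-dTAG_C the summits were 36 and 24 against 25 and 23, with a log2 fold change of 0.18 (adjusted p = 0.841) in the authors' deposited table. The groups were thus apart in EBF1-dTAG_N and overlapped in EBF1-dTAG_C. At the downstream start the authors' deposited tables gave 0.39 (adjusted p = 0.058) in EBF1-dTAG_N and -0.15 (adjusted p = 0.854) in EBF1-dTAG_C.

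Inside Runx3, at chr4:135160215-135160556, summits were 39 and 48 with DMSO and 16 and 22 with dTAG-13 in EBF1-dTAG_N. The authors' deposited tables gave -0.95 (adjusted p = 5.13e-05) there, and -1.02 (adjusted p = 0.0584) in EBF1-dTAG_C, where summits were 22 and 46 against 19 and 12. The EBF1-dTAG_C value passed when folds were centred (adjusted p = 0.037).

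The other 7 factors with a region, Gata3, Tbx21, Rora, Tox, Nfil3, Eomes and Zbtb16, had 5 calls among 16 regions in EBF1-dTAG_N (31.2%, against 37.3% of all regions) and 0 among 14 in EBF1-dTAG_C (6.93% of all regions), in the authors' deposited tables. Gata3, which EBF1 is known to hold down in pro-B cells, had 1 region, at chr2:9879522-9879927 inside the gene span. Its summits were 53 and 54 with DMSO and 36 and 35 with dTAG-13 in EBF1-dTAG_C, and 37 and 40 against 27 and 24 in EBF1-dTAG_N. The dTAG-13 libraries were lower in both lines on this scale, which is not corrected for depth. Whether depth accounts for these lower summits was not tested. In the authors' deposited tables the log2 fold changes were -0.02 (adjusted p = 0.983) and 0.08 (adjusted p = 0.805).

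Tbx21, which encodes T-BET of type 1 T cells and NK cells, had a weak region 14.1 kb downstream, near chr11:97083796-97084033. A single DMSO library per line had a peak there, of 12 in EBF1-dTAG_N and 14 in EBF1-dTAG_C, and no dTAG-13 library had one. The authors' deposited tables gave log2 fold changes of -1.58 (adjusted p = 0.00207) in EBF1-dTAG_N and -1.72 (adjusted p = 0.0519) in EBF1-dTAG_C, which passed when centred (adjusted p = 0.0382). Inside Rora, whose product RORA is required by group 2 innate lymphoid cells, a region near chr9:69367181-69367485 had peaks of 11 and 8 (EBF1-dTAG_N) and 10 and 5 (EBF1-dTAG_C) with DMSO and none with dTAG-13 in either line. Its log2 fold changes were -1.35 (adjusted p = 0.0485) and -1.85 (adjusted p = 0.0751) in the authors' deposited tables, and another Rora region was higher by 0.79 (adjusted p = 0.0285) in EBF1-dTAG_N. The fall did not pass with the degrees of freedom of EBF1-dTAG_C (adjusted p = 0.1), nor the rise when centred (adjusted p = 0.119).

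The most open Tox region, at chr4:6924611-6925163 inside the gene, had summits of 115 and 95 with DMSO and 73 and 73 with dTAG-13 in EBF1-dTAG_N, and the authors' deposited table gave a fall of 0.33 on the log2 scale (adjusted p = 0.00359). In EBF1-dTAG_C the log2 fold change was -0.24 (adjusted p = 0.692) in the authors' deposited table. Nfil3, whose product NFIL3 acts early in innate lymphoid development, had a promoter region that was not called (-0.12 with adjusted p = 0.891 in EBF1-dTAG_C, -0.11 with adjusted p = 0.636 in EBF1-dTAG_N) in the authors' deposited tables. Beside its boundary, 0.2 kb and 0.1 kb upstream, the values were 0.04 and 0.14. A faint Nfil3 region 41.6 kb upstream had peaks of 7 and 6 in the dTAG-13 libraries of EBF1-dTAG_N and none with DMSO, with a log2 fold change of 2.55 (adjusted p = 0.0479) in the authors' deposited table, which did not pass when centred (adjusted p = 0.0839). Eomes, the T-BET relative of NK cells, had 1 region 3.7 kb downstream, at -0.39 (adjusted p = 0.673) in EBF1-dTAG_C and 0.27 (adjusted p = 0.359) in EBF1-dTAG_N, and Zbtb16 stood at 0.12 and -0.15, in the authors' deposited tables.

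The T-cell receptor chains and coreceptors had few regions. Cd3d, which encodes the delta chain of CD3, had 1 region, at chr9:44986399-44986860 near the end of the gene. Its summits were 102 and 73 with DMSO and 69 and 117 with dTAG-13 in EBF1-dTAG_N, and 58 and 54 against 83 and 56 in EBF1-dTAG_C. Groups overlapped in both lines. The authors' deposited tables gave log2 fold changes of 0.53 (adjusted p = 1.67e-05) and 0.57 (adjusted p = 0.189).

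Beside Cd3e, which encodes the epsilon chain, EBF1-dTAG_C had a faint region 0.4 kb downstream at chr9:44998171-44998451. It had peaks of 8 and 9 in the dTAG-13 libraries and none with DMSO, with a log2 fold change of 1.82 that was not called (adjusted p = 0.155) in the authors' deposited table. Cd247, which encodes the zeta chain that T cells and NK cells share, had 7 regions in each line, all inside the gene. None was called: the authors' deposited tables gave -0.02 to 1.05 for EBF1-dTAG_C and -0.34 to 0.49 for EBF1-dTAG_N. The largest, at chr1:165848985-165849242 in EBF1-dTAG_C, rested on a peak in 1 dTAG-13 library (adjusted p = 0.108).

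Cd4 was accessible in EBF1-dTAG_N at chr6:124885155-124885451 inside the gene, with summits of 18 and 13 in the DMSO libraries and no peak in the dTAG-13 libraries. The authors' deposited table gave a log2 fold change of -2.86 (adjusted p = 1.44e-05) at a low mean abundance (1.28 log2 CPM, a depth-scaled count; the median of all regions was 2.47). The gene encodes the coreceptor of helper T cells.

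Proximal signalling genes went in different directions. All 5 Lat regions in EBF1-dTAG_N and all 6 in EBF1-dTAG_C had positive folds, 0.58 to 1.65 and 0.14 to 0.72, in the authors' deposited tables, and 3 rose in EBF1-dTAG_N. Of all regions, 37.1% in EBF1-dTAG_N and 40.6% in EBF1-dTAG_C had a negative fold, and 18.8% were higher in EBF1-dTAG_N. Each of the 5 overlapped an EBF1-dTAG_C region, so the lines do not add separate sites. LAT is the membrane adaptor that ZAP70 phosphorylates. At its promoter, chr7:126369240-126369931, summits were 70 and 65 with DMSO and 97 and 100 with dTAG-13 in EBF1-dTAG_N, and 54 and 61 against 61 and 61 in EBF1-dTAG_C. The authors' deposited tables gave 0.77 (1.71-fold higher, adjusted p = 2.23e-15) and 0.35 (adjusted p = 0.3) on the log2 scale. The groups were apart in EBF1-dTAG_N and met in EBF1-dTAG_C.

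A second Lat region, 23.4 kb downstream at chr7:126340267-126340652, had summits of 59 and 58 with DMSO and 71 and 78 with dTAG-13 in EBF1-dTAG_N, and 68 and 75 against 88 and 80 in EBF1-dTAG_C. In the authors' deposited tables its log2 fold changes were 0.90 (adjusted p = 1.54e-09) and 0.72 (adjusted p = 0.167). Its summits were higher in all 4 dTAG-13 libraries than in the DMSO libraries of the same line, on a scale not corrected for depth. The region 22.7 kb downstream rose by 0.58 (adjusted p = 0.0137) in the authors' deposited table of EBF1-dTAG_N and did not pass when centred (adjusted p = 0.118).

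Lck encodes the kinase that starts T-cell receptor signalling. At its downstream start, chr4:129558234-129558970, the authors' deposited tables gave 0.52 (adjusted p = 0.00214) in EBF1-dTAG_N and 0.29 (adjusted p = 0.685) in EBF1-dTAG_C. Summits overlapped, at 18 and 19 with DMSO and 18 and 15 with dTAG-13 in EBF1-dTAG_N, and the value did not pass when centred (adjusted p = 0.0598). Zap70 had a second fallen region in EBF1-dTAG_N, 3.5 kb downstream, with summits of 12 and 18 with DMSO and no peak with dTAG-13, and a log2 fold change of -1.65 (adjusted p = 1.16e-06) in the authors' deposited table. Themis, a regulator of thymocyte selection, had 1 faint region in EBF1-dTAG_C, at -0.78 (adjusted p = 0.772) in the authors' deposited table.

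Promoter regions were counted apart. Of the 7 promoter regions of 6 genes, 4 rose and 0 fell in EBF1-dTAG_N, against 32.5% risen and 3.64% fallen of all promoter regions in the authors' deposited table. In EBF1-dTAG_C 0 moved either way, against 0.082% risen and 0.984% fallen. With so few promoter regions fallen among all genes, the 0 fallen here lie near those shares. The 4 risen promoters are those of Lat, Runx3, Lck and Notch1 printed above, and those of Lat and Runx3 passed when folds were centred (adjusted p = 1.05e-09 and 0.00552). The Cd5 promoter region stood at 0.36 (adjusted p = 0.0832) in EBF1-dTAG_N and 0.16 (adjusted p = 0.823) in EBF1-dTAG_C in the authors' deposited tables.

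Costimulatory and adhesion genes had 6 lower and 8 higher of 34 regions in EBF1-dTAG_N and 0 calls among 22 in EBF1-dTAG_C, in the authors' deposited tables. The share of all regions was 18.5% lower and 18.8% higher in EBF1-dTAG_N, and 6.93% were called either way in EBF1-dTAG_C. On centred folds 6 regions at these genes were lower and 3 higher in EBF1-dTAG_N (20.8% and 7.98% of all regions). The rises were at Cd6, Ctla4 and Cd28. Cd28 and Ctla4, the activating and inhibitory receptors for B7 ligands, and Icos, their relative, are neighbours on chromosome 1, so a region between them is named by distance alone. In EBF1-dTAG_N the 11 Cd28 regions gave 2 lower and 3 higher, the 8 Ctla4 regions 2 lower and 3 higher, and the 3 Icos regions 1 higher, in the authors' deposited table. The Icos rise did not pass when centred (adjusted p = 0.0626).

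The firmest call of this cluster was a fall between Cd28 and Ctla4, 24.6 kb outside Cd28 at chr1:60797821-60798185. Its summits were 52 and 70 with DMSO and 27 and 26 with dTAG-13 in EBF1-dTAG_N, and 16 and 16 against no peak and 9 in EBF1-dTAG_C. The authors' deposited tables gave -0.77 (adjusted p = 3.55e-05) and -0.68 (adjusted p = 0.435). The dTAG-13 libraries were lower in both lines, and the site was less open in EBF1-dTAG_C from the start.

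The larger folds at Ctla4 in EBF1-dTAG_N came from weak sites. At 51.0 kb upstream, summits of 12 and 15 with DMSO and no peaks with dTAG-13 went with -2.40 (adjusted p = 0.000209), and at 17.7 kb downstream a peak of 10 in 1 DMSO library went with -3.76 (adjusted p = 0.000789), in the authors' deposited table. In the other direction, 2.8 kb downstream, a peak of 19 in 1 dTAG-13 library went with 2.35 (adjusted p = 0.0012) in the authors' deposited table. The most open site, inside Ctla4 at chr1:60913352-60913720, had overlapping summits of 94 and 99 with DMSO and 87 and 105 with dTAG-13, and the authors' deposited table gave 0.40 (adjusted p = 0.00237; 0.123 when centred). Beside the gene boundaries, 0.7 kb downstream of Ctla4 and at the edge of Cd28, the EBF1-dTAG_N values of 0.03 (adjusted p = 0.867) and 0.57 (adjusted p = 0.0598) in the authors' deposited table were not called.

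Cd5 and Cd6 encode related scavenger-family receptors of T cells, CD5 also of B-1 cells, and are close neighbours on chromosome 19. At Cd5 2 of 3 regions fell in EBF1-dTAG_N. At chr19:10742624-10742899, 3.7 kb upstream, summits were 31 and 14 with DMSO with no peak with dTAG-13, and the authors' deposited table gave -1.38 (adjusted p = 0.000661). Inside the gene at chr19:10728072-10728331, a single DMSO library of EBF1-dTAG_N had a peak, of 12, and both DMSO libraries of EBF1-dTAG_C had one, of 8 and 6, while no dTAG-13 library had one. The log2 fold changes there were -2.47 (adjusted p = 0.000922) and -2.51 (adjusted p = 0.0818) in the authors' deposited tables.

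At Cd6 the region inside the gene at chr19:10790245-10790623 rose. Its summits were 31 and 20 with DMSO and 36 and 49 with dTAG-13 in EBF1-dTAG_N, which did not overlap, and the authors' deposited table gave 1.00 (2.0-fold higher, adjusted p = 1.06e-05). In EBF1-dTAG_C they were 6 and 16 against 13 and 14, which overlapped, with 0.52 (adjusted p = 0.6) in the authors' deposited table. The neighbouring genes thus held calls in opposite directions, with 0 risen at Cd5 and 0 fallen at Cd6. Cd2, Cd7 and Thy1, surface proteins of T cells and NK cells, had no call in either line. Cd2 had 3 regions at 0.48 to 1.14 in EBF1-dTAG_C and 1 at 2.69 (adjusted p = 0.0711) in EBF1-dTAG_N, Cd7 lay between -0.75 and 0.57, and Thy1 between -0.71 and 0.11, in the authors' deposited tables.

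The interleukin 2 receptor genes had the largest share of fallen regions among the groups with more than 1 region: 8 of 19 (42.1%) fell and 3 rose in EBF1-dTAG_N, and 3 of 14 (21.4%) fell and 0 rose in EBF1-dTAG_C, in the authors' deposited tables. On centred folds 9 were lower and 1 higher in EBF1-dTAG_N (20.8% and 7.98% of all regions), and 3 were lower in EBF1-dTAG_C (7.39%). Of all regions, 18.5% and 6.62% were lower as deposited, and the share was not tested against the other groups. Il2ra had 6 fallen and 3 risen of 16 regions in EBF1-dTAG_N. Just upstream of its start, 0.6 kb away at chr2:11642150-11642322, a single DMSO library had a peak, of 25, and no dTAG-13 library did; the authors' deposited table gave -2.74 (adjusted p = 2.43e-06).

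The largest fold in size among the regions of the 37 genes was -7.15 (adjusted p = 4.13e-05) inside Il2ra at chr2:11680897-11681093, in the authors' deposited table of EBF1-dTAG_N. It rests on summits of 8 and 8 with DMSO and no peak with dTAG-13 at a mean abundance of 0.49 log2 CPM, so its size depends on how the fit treats values near 0 and is no bound. The most open Il2ra region, 5.5 kb upstream, had summits of 222 and 204 with DMSO and 155 and 205 with dTAG-13 in EBF1-dTAG_N and of 199 and 214 against 152 and 191 in EBF1-dTAG_C. The authors' deposited tables gave 0.20 in both lines (adjusted p = 0.0176 and 0.532), and 0.788 when the EBF1-dTAG_N table was centred. Open sites of this locus therefore ran from a loss of peaks to no fall within the gene and its upstream flank, as the plot along the loci shows.

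The other Il2ra calls in EBF1-dTAG_N were 0.53 (adjusted p = 0.000462) at 12.8 kb upstream, where summits of 25 and 18 with DMSO met 18 and 18 with dTAG-13. Inside the gene they were -0.63 (adjusted p = 0.000552), where 33 and 33 with DMSO stood against 18 and 31, which did not overlap, -1.21 (adjusted p = 0.0184), and 1.66 (adjusted p = 0.0312), in the authors' deposited table. The fall of 1.21 did not pass with the degrees of freedom of EBF1-dTAG_C (adjusted p = 0.059), nor the rise of 1.66 when centred (adjusted p = 0.0704). Il2rb had a second fallen region in EBF1-dTAG_N, 3.5 kb outside the gene, at -3.15 (adjusted p = 0.00299) in the authors' deposited table, with a peak of 7 in 1 DMSO library.

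NK and cytotoxic genes had 3 regions in EBF1-dTAG_N, with 1 rise, and 5 in EBF1-dTAG_C, with no call, in the authors' deposited tables. Of all regions, 18.5% were lower and 18.8% higher in EBF1-dTAG_N, and 6.93% were called either way in EBF1-dTAG_C. So few regions cannot be told apart from these shares. Klrd1 encodes CD94, a receptor subunit of NK cells. At chr6:129589401-129589585 inside the gene, a peak of 14 in 1 dTAG-13 library went with a rise of 2.81 (adjusted p = 0.000389) in the authors' deposited table of EBF1-dTAG_N. The more open Klrd1 region, at chr6:129591532-129591876, had summits of 48 and 21 against 28 and 33 in EBF1-dTAG_C and 52 and 20 against 26 and 59 in EBF1-dTAG_N, all overlapping, with 0.34 (adjusted p = 0.649) and 0.33 (adjusted p = 0.167) in the authors' deposited tables.

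Ifng encodes interferon gamma. At chr10:118501468-118502022, 55.9 kb downstream of the gene, summits were 14 and 11 with DMSO and 26 and 29 with dTAG-13 in EBF1-dTAG_C. The groups did not overlap, but the log2 fold change of 0.86 was not called (adjusted p = 0.0826) in the authors' deposited table. EBF1-dTAG_N had no region there and a single Ifng region 70.4 kb upstream, at -0.03 (adjusted p = 0.973). Ncr1, which encodes NKp46 of NK cells, had 1 region 40.3 kb upstream in EBF1-dTAG_C, with peaks of 8 and 7 with DMSO and none with dTAG-13, at -0.88 (adjusted p = 0.599) in the authors' deposited table.

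Peaks that were lost or gained outright were counted next. Of these genes' regions, 9 of 101 (8.91%, against 8.46% of all regions) had a peak in both DMSO libraries and neither dTAG-13 library in EBF1-dTAG_C, and 11 of 122 (9.02%, against 10.3%) in EBF1-dTAG_N. The reverse held for 1 region in EBF1-dTAG_C (0.99%, against 1.38%), the Cd3e one, and for 6 in EBF1-dTAG_N (4.92%, against 3.53%), at Runx3 (3), Cd28, Icos and Nfil3. Peaks in all 4 libraries of a line were found at 45 regions in EBF1-dTAG_C (44.6%, against 44%) and 54 in EBF1-dTAG_N (44.3%, against 46.1%). Of the 11 regions that lost both peaks in EBF1-dTAG_N, 10 were called lower in the authors' deposited table, the exception being a Thy1 region, and 82.1% of all such regions in the table were. Of the 9 in EBF1-dTAG_C, 1 was called lower (42.3% of all such regions were), and the log2 fold changes in the authors' deposited table ran from -2.51 at Cd5 to -0.02 at Cd247 and 0.48 at Cd2. The shares of lost and gained peaks are near those of all regions in both lines.

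The distance limit left few regions on its edge. The farthest regions kept were 86.0 kb from Runx3 in EBF1-dTAG_C (log2 fold change 0.10) and 87.7 kb from Cd28 in EBF1-dTAG_N (1.59), and the nearest left out lay 146.9 kb from Ifng in both lines (0.10 and -0.38), in the authors' deposited tables.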

How the data were processed

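ATAC-seq was carried out on 8 libraries, 2 per group, from 50000 cells each (biological replicates, per the series' design). Per the submitters' processing notes, MACS2 2.2.7.1, edgeR 3.32.0, Bowtie2 2.3.5.1, deepTools 3.3.2 and SAMtools 1.10 were used with GRCm38 (mm10). How reads were filtered, shifted for Tn5 and scaled is not given in the sources used here. Per library, the authors deposited 1 peak list, with a score, a fold enrichment over local background (a ratio), and −log10 p-values and q-values. They also deposited a comparison table per line with the log2 fold change, mean abundance as log2 CPM, F as a score, and raw and adjusted p-values, but no values per library, so no regional test was refitted.

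Repeated entries (8 and 12) were counted once. Regions were assigned by centre to the nearest protein-coding span (RefSeq, GRCm38.p6); spans do not separate exons from introns. Peaks and regions were joined at an overlap of 1 bp. Summit pileups were solved from the deposited fold and −log10 p-value under MACS2's Poisson form: 612 of 612 peaks at these genes gave whole numbers (tolerance 0.0001). Centred p-values and the line difference used the approximate standard error |log2 fold change|/sqrt(F). These steps were run on simulated data with large effects, known standard errors and degrees of freedom near those of EBF1-dTAG_C. Such data cannot check the approximation, small effects or the degrees of freedom of EBF1-dTAG_N. Peak numbers were compared by exact permutation. The p-values rest on 2 libraries per group. Alternatives covered fold scale, thresholds, distance, abundance, peak stringency and left-out libraries. Members and lists were chosen with earlier results of these data known. Named regions were those called in both tables, the 25 with the smallest adjusted p in each table, and those within 1 kb of a named gene's boundary; other called regions were named after their values were seen. Python 3.11.15, numpy 2.4.6, pandas 2.3.3, scipy 1.17.1 and matplotlib 3.10.9 were used.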

Additional observations from a re-analysis of the deposited data

How the results depend on the processing

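Of the alternative values of the main results, 57 were counted as kept and 24 as moved. A count was kept when within 1.5 times of the reported count, and otherwise moved. The difference in peak number was kept when its sign stayed the same, whatever its size, and 0 reversed. The -0.75 peaks with equal numbers of best-ranked peaks, against -12.2, were therefore counted as kept. In EBF1-dTAG_C, 1 region was lower at an adjusted p under 0.01 and 3 were lower among regions inside genes. In EBF1-dTAG_N, the count of higher regions went from 26 to 10 with centred folds, 12 at an adjusted p under 0.01, 8 with a log2 fold change beyond 1 in size, 11 inside genes, 13 above the median abundance and 13 with the degrees of freedom of EBF1-dTAG_C; lower regions numbered 16 inside genes and 18 above the median abundance. Of the named regions, the 6 that fell in EBF1-dTAG_C passed when centred, and the 25 with the smallest adjusted p in EBF1-dTAG_N passed when centred and with the degrees of freedom of EBF1-dTAG_C. Regions with peaks in DMSO libraries alone numbered 5 (−log10 q of at least 5) and 4 (equal numbers of best-ranked peaks) in EBF1-dTAG_C and 6 (equal numbers) in EBF1-dTAG_N, and 14 to 18 and 13 to 21 with 1 library left out. Those with peaks in dTAG-13 libraries alone numbered 1 to 6 in EBF1-dTAG_C with 1 library left out, and in EBF1-dTAG_N 3 at the stricter q and 6 to 17 with 1 library left out, 17 without dTAG-13 replicate 1; a rule that needs fewer lists admits more regions. The difference in peak number was -10.2 at the stricter q (exact permutation p = 0.0556), -0.75 with equal numbers of peaks (p = 1), and -9.75 to -14.8 with 1 library left out (p = 0.0556 to 0.167); as a share of all peaks it was -0.00643 percentage points (p = 0.167). With a replicate block it was -12.2 (exact permutation p = 0.25), and also p = 0.25 with the pairing crossed in EBF1-dTAG_C, an alternative added after seeing the data because replicate deviations correlated at -0.2 there. Peak names in the EBF1-dTAG_C lists number the libraries 4 and 2 (DMSO) and 1 and 3 (dTAG-13) where the titles have 1 and 2, so replicate numbers may not pair them. For the regions themselves no paired analysis was possible because the deposited tables hold no values per library, so their tests could not be refitted with a block or with a library left out.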
